A study of Mus musculus with 4 samples.

Results

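Egr1, Egr2 and Egr3, which encode zinc finger transcription factors, and Nab1 and Nab2, which encode the corepressors that bind them, were followed in naive CD4+ T cells of mice with and without TACI. The members were named by symbol. For each one the probe set with the highest mean over the 4 arrays was used, among probe sets that the platform annotation pairs with 1 gene symbol. All 5 were found among 22180 genes with such a probe set, and all 5 were among the 13782 genes bright enough to be tested. Values are expression levels on a log2 scale, so a difference of 1 is a 2-fold change.

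TACI, the product of Tnfrsf13b, is a receptor for the cytokines BAFF and APRIL. The TACI-/- group held 2 samples and the wild-type (WT) group 2 samples, all of C57BL/6 strain. Cells were taken from spleen and lymph node that had been combined, and were sorted by surface markers that include CD4, low CD44 and no CD25. The age of the mice, the design of the TACI allele and the number of mice in a sample are not given in the sources used here, so p-values measure only the spread between these samples. Each sample was hybridised to 1 Affymetrix Mouse Gene 2.0 ST array.

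EGR proteins are made within minutes to hours of an antigen receptor signal. The ERK kinases switch on Egr1 through serum response factor and its ternary complex partners, and calcineurin with NFAT is needed for Egr2 and Egr3. EGR1 is known as an activator of early response genes, while EGR2 and EGR3 are known in T cells for restraining activation, through the ubiquitin ligase gene Cblb among others, and for tolerance. NAB1 and NAB2 bind a shared inhibitory domain of EGR1, EGR2 and EGR3 and recruit a chromatin complex that contains CHD4, and Nab2 is itself an EGR target, so that it closes a negative feedback loop.

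Start regions were taken from RefSeq (build GRCm38.p6), which held 300-base windows for 3 of the 5 members, Egr2, Nab1 and Nab2. Those of Egr2 and Nab1 are shown because they hold letters bound by serum response factor or by EGR proteins, and that of Nab2 for comparison. No NFAT motif was searched. Each is printed 5′ to 3′ on the gene's strand, with matches to the searched motifs in capitals. For Egr2 the capitals mark the CArG box, the element bound by serum response factor, and in the first sequence also GACGTCA, part of the cyclic AMP response element. The first lies 78 to 49 bases before a start site, at chr10:67537791-67537820 (plus strand), and the second 82 to 53 bases before an upstream start site, at chr10:67537484-67537513 (plus strand).
Egr2 downstream site: ctcagtCCATATATGGgcagcGACGTCAcg
Egr2 upstream site: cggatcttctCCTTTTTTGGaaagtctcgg

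For Nab1 the capitals mark GCGTGGGCG or GCGGGGGCG, forms of the site that EGR proteins bind, on either strand. The 3 sites lie at chr1:52500570-52500599, chr1:52500538-52500567 and chr1:52500467-52500496 (all minus strand).
Nab1 distal site: gccccgcggcCGCCCACGCcgggatctgcg
Nab1 middle site: actcggccgcGCGTGGGCGggagccggagc
Nab1 proximal site: gcggggcgggGCGGGGGCGgcggaggtggc

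For Nab2 the 250 bases before the start site, at chr10:127666704-127666953 (minus strand), are shown for comparison with Nab1. They hold no match to any of the motifs searched, which says only that these exact letters are not in this window. Variants of the sites were not searched, so the window is not shown to lack EGR sites.
Nab2 start region: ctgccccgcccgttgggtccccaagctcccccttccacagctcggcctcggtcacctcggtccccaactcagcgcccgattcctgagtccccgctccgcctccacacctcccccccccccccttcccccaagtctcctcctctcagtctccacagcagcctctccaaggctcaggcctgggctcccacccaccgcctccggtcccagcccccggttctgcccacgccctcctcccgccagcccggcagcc

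In all, 7 motifs were searched on both strands of each 300-base window: the CArG box, TGACGTCA, GACGTCA (contained in TGACGTCA), TGACG (which overlaps both), GCGTGGGCG, GCGGGGGCG and CCGGAA, the core bound by ETS proteins such as the ternary complex factors. Among 32851 RefSeq windows, 1.63% held a CArG box, 3.21% GACGTCA, 14.9% CCGGAA, 0.612% GCGTGGGCG and 2.91% GCGGGGGCG. The Egr2 windows, 5 in number and partly overlapping, held a CArG box in 4 and GACGTCA in 3. These were 2 distinct CArG boxes and 1 GACGTCA, counted again in each window that covers them. By gene, 1.81% of all genes with a window had a CArG box in any window and 3.6% had GACGTCA. The upstream Egr2 window also held CCGGAA on both sides of its CArG box. The Nab1 window held GCGTGGGCG at 2 places and GCGGGGGCG at 1. Among other genes named by lists, GCGGGGGCG stood in a window of 6 of 21 immediate early genes (28.6%) and 1 of 23 reported EGR targets (4.35%), against 3.31% of all genes with a window, and GCGTGGGCG stood in 0 of 21 and 0 of 23 against 0.707%. These matches are descriptions of letters and not measurements of binding. GACGTCA was added to the search after the Egr2 sequence had been seen.

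The question of the comparison was how TACI-/- cells differ from WT cells. All 3 Egr genes were at higher levels on both TACI-/- arrays than on both WT arrays, by 1.34-fold to 1.53-fold, and neither Nab gene differed by more than the spread between arrays. No member passed the threshold of the study-wide test (limma, Benjamini-Hochberg adjusted p under 0.05 over all tested genes), so the Egr differences are given as values and not as calls. Of all tested genes 19 passed (0.138%), 15 of them higher (0.109%) and 4 lower (0.029%) in TACI-/- cells, and the smallest log2 difference among the 19 was 1.17 in size. The Egr differences were below that size.

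Egr1, the member best known as an early response gene, was at 6.55 and 6.31 log2 units on the TACI-/- arrays (replicates 1 and 2) and at 5.90 and 5.72 on the WT arrays. The lowest TACI-/- value stood 0.40 above the highest WT value, the widest gap of the 5 members. The log2 difference was 0.62 ± 0.15 (SE), with a 95% interval from 0.25 to 0.98, or a 1.53-fold difference. The limma p was 0.00542 before and 0.321 after adjustment.

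Egr3, which acts with Egr2 in T cell tolerance, was at 6.52 and 6.09 on the TACI-/- arrays and at 5.91 and 5.63 on the WT arrays. The groups did not overlap, but TACI-/- replicate 2 lay only 0.18 above WT replicate 1. The log2 difference was 0.54 ± 0.19 (SE, 95% interval 0.08 to 0.99), or 1.45-fold, with a limma p of 0.0278 before and 0.527 after adjustment.

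Egr2, the other member of that pair, was at 6.05 and 5.67 on the TACI-/- arrays and at 5.54 and 5.32 on the WT arrays. Its groups came closest of the Egr genes, with a gap of 0.13 between TACI-/- replicate 2 and WT replicate 1. The log2 difference was 0.43 ± 0.17 (SE, 95% interval 0.0077 to 0.85), or 1.34-fold, with a limma p of 0.047 before and 0.568 after adjustment.

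All 3 Egr genes thus had an unadjusted p under 0.05 with a positive difference, as did 4.94% of all tested genes, while 3.84% had one with a negative difference and 8.78% in either direction. The complete separation of the genotypes that the Egr genes showed is more common, since 20.5% of tested genes had both TACI-/- arrays above both WT arrays and 18.1% had both below. By size, Egr1 ranked 173 among 13782 signed differences, Egr3 271 and Egr2 509, which places them in the highest 1.26%, 1.97% and 3.69%. Without TACI-/- replicate 1 the log2 differences of Egr1, Egr2 and Egr3 were 0.49, 0.24 and 0.32, and without TACI-/- replicate 2 they were 0.74, 0.62 and 0.75, so the size for Egr2 and Egr3 depended on which TACI-/- array was kept. Without WT replicate 2, Egr2 and Egr3 had 0.31 and 0.39. The unadjusted p fell on both sides of 0.05 in these fits (0.0345 to 0.243 without TACI-/- replicate 1).

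**Figure D1:**
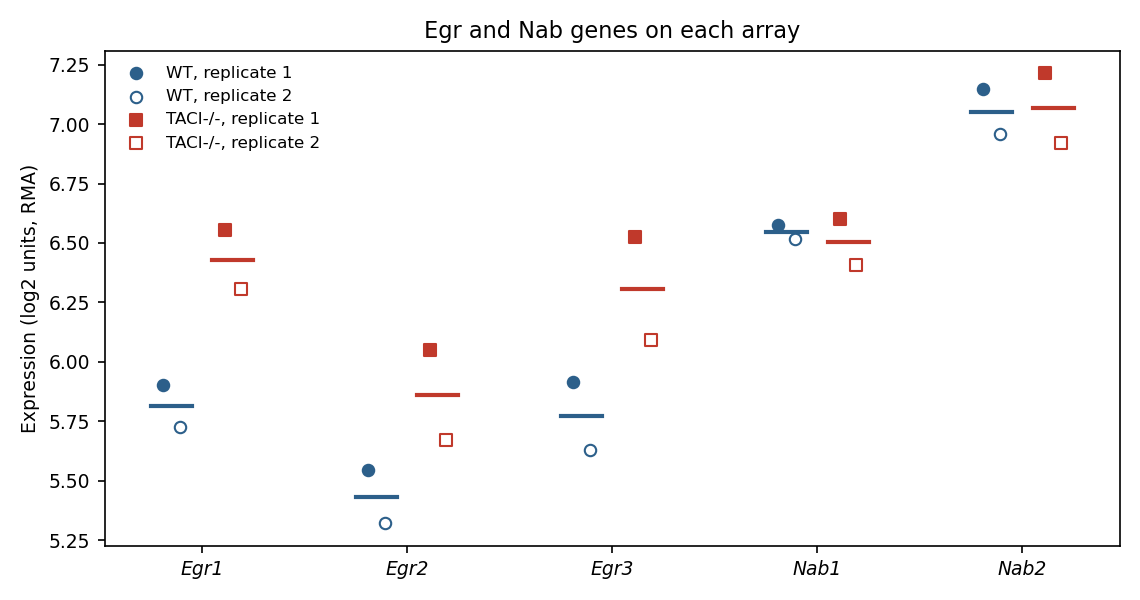
Expression of the 5 genes (log2 units) on each array, WT as circles and TACI-/- as squares, replicate 1 filled and replicate 2 open, with a bar at each mean (n = 2). For Egr1, Egr2 and Egr3 both TACI-/- squares lie above both WT circles, while the genotypes overlap for Nab1 and Nab2. Levels of different genes come from different probes and are not comparable.

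Nab1, the first of the corepressor genes, was at 6.60 and 6.41 on the TACI-/- arrays and at 6.57 and 6.52 on the WT arrays. Both WT values lay between the TACI-/- values. The log2 difference was -0.04 ± 0.14 (SE), with a 95% interval from -0.37 to 0.29, which corresponds to 0.771 to 1.22 times the WT level (limma adjusted p = 0.97).

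Nab2, the corepressor gene that EGR proteins themselves induce, was at 7.21 and 6.92 on the TACI-/- arrays and at 7.15 and 6.96 on the WT arrays. The highest and the lowest value both belonged to TACI-/- arrays. The log2 difference was 0.02 ± 0.16 (SE), with a 95% interval from -0.37 to 0.40, or 0.776 to 1.32 times the WT level (limma adjusted p = 0.996). Its sign turned to -0.0032 with each array centred on its median, so no direction is given. The intervals of both Nab genes do not reach the 0.43 estimated for Egr2, but they include smaller differences in either direction, so they do not show that the Nab genes were unaffected.

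Nab2 was the only member with several probe sets. The dimmer of its 2 probe sets was at 5.64 and 5.54 on the TACI-/- arrays and at 5.66 and 5.33 on the WT arrays, a log2 difference of 0.09 with overlapping genotypes. The probe sets are numbered in different runs, the dimmer between those of Stat6 and Nemp1 and the brighter between those of Lrp1 and Gpr182. The ends of Nab2 and Stat6 overlap in the RefSeq gene table, and the sources used here do not say where the probes lie relative to that overlap.

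Distances between the Egr genes within an array were compared next. Egr3 minus Egr2 was 0.48 and 0.42 on the TACI-/- arrays and 0.37 and 0.31 on the WT arrays. Egr3 minus Egr1 was -0.03 and -0.22 on the TACI-/- arrays and 0.01 and -0.09 on the WT arrays, and the genotypes overlapped. Egr2 minus Egr1 was -0.51 and -0.64 on the TACI-/- arrays against -0.36 and -0.40 on the WT arrays, a further -0.19 in TACI-/- cells. These distances come from different probes, and their absolute size has no meaning; only their change between genotypes does. In the exact permutation test over the 4 arrays (6 arrangements, two-sided) p was 0.333 for Egr2 minus Egr1 and for Egr3 minus Egr2, the smallest that this design allows, and 0.667 for Egr3 minus Egr1 and for Nab2 minus Nab1. Unequal changes among the Egr genes could therefore not be shown.

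The arrays of one genotype also differed in the same direction for all 5 genes. Replicate 1 was above replicate 2 by 0.25, 0.38 and 0.43 for Egr1, Egr2 and Egr3 on the TACI-/- arrays and by 0.18, 0.22 and 0.28 on the WT arrays. For Nab1 and Nab2 it was above by 0.20 and 0.29 on the TACI-/- arrays and by 0.06 and 0.19 on the WT arrays. Of all tested genes, 28.2% were higher on replicate 1 in both genotypes. The labels do not say that a number marks a shared batch, and its part in the values was not tested.

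**Figure D2:**
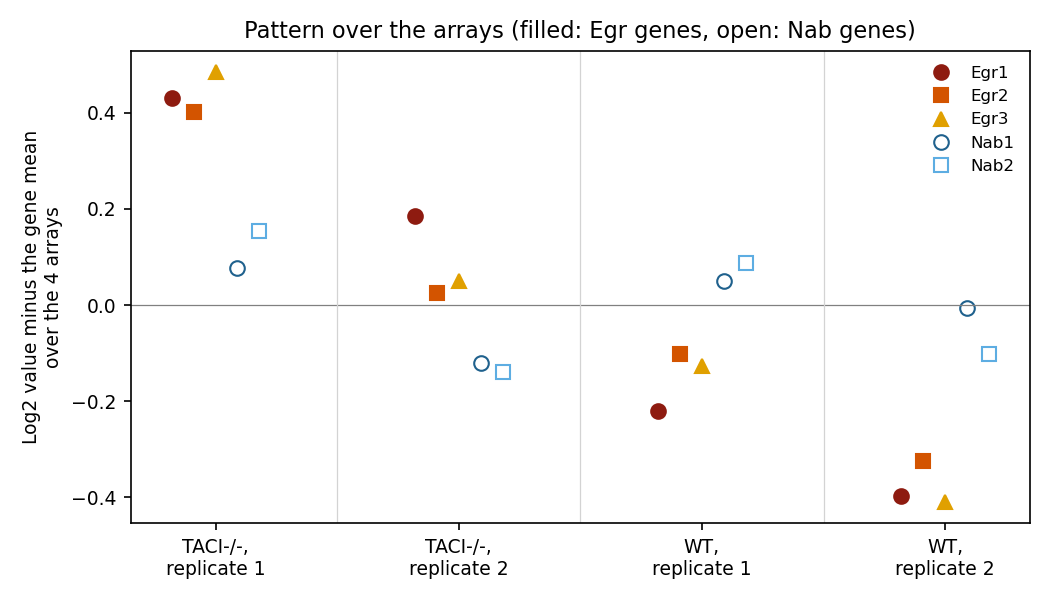
Log2 value of each gene on each array minus that gene's mean over the 4 arrays; filled symbols are Egr genes and open symbols Nab genes. The Egr genes lie above 0 on both TACI-/- arrays and below 0 on both WT arrays, and the Nab genes are above 0 on both arrays numbered 1 and below 0 on both numbered 2.

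Patterns most like each member were found as the smallest Euclidean distance between values centred on each gene's mean, over 4 arrays and the tested genes. Predicted genes, Rik clones, receptor segments and small RNAs were left out by the spelling of their symbols. This also left out some other genes, such as those whose symbols begin with Tra or Rn. The distance between Egr2 and Egr3 was 0.12, between Nab1 and Nab2 0.13, between Egr1 and Egr3 0.17, and between Egr1 and Egr2 0.21, while every pair of an Egr and a Nab gene lay 0.42 to 0.67 apart. Nearest to Egr3 was Fos, the AP-1 subunit gene, at a distance of 0.02, with 9.42 and 9.01 on the TACI-/- arrays and 8.80 and 8.54 on the WT arrays; Pou2f2 (0.08) and Ybx3 (0.08) followed. Nearest to Egr1 were Cenpb (0.04), Eef2k (0.05) and Foxp3 (0.07), the last a transcription factor gene of regulatory T cells. Nearest to Egr2 were Fam174b (0.03), Cdh5 (0.04) and Zfand2a (0.05). Naa40, Ppp4r2 and Hectd4 were nearest to Nab1 (0.01 to 0.02), and Olfr884, Zfp963 and Kctd5 to Nab2 (all 0.02). With 4 arrays and so many genes searched close matches are common, and the distances describe these arrays only.

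Other zinc finger genes close to the members did not share the Egr pattern of separated, higher TACI-/- values. Egr4, the remaining EGR family gene, was dim, at 4.52 and 4.30 on the TACI-/- arrays and 4.81 and 4.21 on the WT arrays, a log2 difference of -0.10 ± 0.22 (SE, limma adjusted p = 0.94). Wt1, which encodes a related zinc finger protein, had means of 4.01 on the TACI-/- arrays and 4.44 on the WT arrays, which did not overlap, a log2 difference of -0.42 (limma adjusted p = 0.496). Neither passed the threshold, and whether their differences differ from those of Egr1, Egr2 and Egr3 was not tested.

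Genes upstream of Egr transcription had small differences. Srf, which encodes serum response factor, was at 6.90 and 6.44 on the TACI-/- arrays and at 6.52 and 6.52 on the WT arrays, and the 2 TACI-/- arrays lay on both sides of the WT arrays. Of 13 genes listed for the ERK and serum response factor route, 9 were tested, 0 rose and 0 fell, and 0 had an unadjusted limma p under 0.05. Of all tested genes 0.138% passed and 8.78% had an unadjusted limma p under 0.05, so 0 among 9 genes is near those shares. The median log2 difference of the 9 was -0.06, against 0.0074 over all tested genes. It turned positive without TACI-/- replicate 2 (0.027) or WT replicate 1 (0.0049). The extremes were Elk3 (0.23), Map2k2 (0.19), Elk1 (-0.22) and Elk4 (-0.24), of which the Elk genes encode ternary complex factors and Map2k2 a kinase of ERK. Of 10 genes listed for calcineurin and NFAT, 9 were tested. Again 0 passed the adjusted threshold in either direction and 0 had an unadjusted limma p under 0.05, which is near the same shares. The median was 0.02, which turned negative without TACI-/- replicate 1 (-0.020) or WT replicate 2 (-0.016). Nfatc1, an NFAT gene induced in activated T cells, had 0.23 and Cabin1, a calcineurin inhibitor, 0.19. At the other end were Nfatc2 with -0.08 and Ppp3cb, a catalytic subunit of calcineurin, with -0.33 (7.82 and 7.50 against 8.04 and 7.94). These lists measure the RNA of the signalling proteins and not their activity.

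Genes listed as induced together with the Egr genes covered a wider range. Of 25 immediate early genes, all tested, 4 rose and 0 fell, where 0.109% of all tested genes rose and 0.029% fell. Nr4a3, an orphan nuclear receptor gene induced by antigen receptor signals, was at 8.16 and 8.23 on the TACI-/- arrays and at 5.89 and 5.89 on the WT arrays (log2 difference 2.31 ± 0.13, SE). The others that rose were its relative Nr4a2 (2.35) and the MAP kinase phosphatase genes Dusp5 (1.88) and Dusp1 (1.37), with limma adjusted p from 0.00514 to 0.0296 over the 4. Under the filter at the 60th percentile, which leaves fewer tests, 6 of the 25 passed in limma, with Fosl2 and Gadd45b added. A variance trend gave 8, with Cd69 and Junb added too. With no filter on dim genes, which adds tests, Nr4a3 was the 1 of the 4 that passed in limma. Dusp1 did not pass with the replicate number as a block, nor Nr4a2 after a further quantile normalization, and 0 passed without variance moderation or with any 1 array left out. The log2 difference was positive in 23 of the 25, beside 51.8% of all tested genes. The arrays were separated with TACI-/- higher in 15 and lower in 1, beside 20.5% and 18.1% of all tested genes. Klf2 (0.19), which is also in the list of naive T cell markers, is among the 23 and the 15. A positive difference at an unadjusted limma p under 0.05 was found in 13, beside the 4.94% of all tested genes given above. The median was 0.46, so Egr1 and Egr3 lay above it and Egr2 just below it. Lowest were Klf10 (-0.0084) and Myc, a growth regulator (-0.20). The early genes were chosen with earlier results of these data known and are not independent evidence of a direction.

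**Figure D3:**
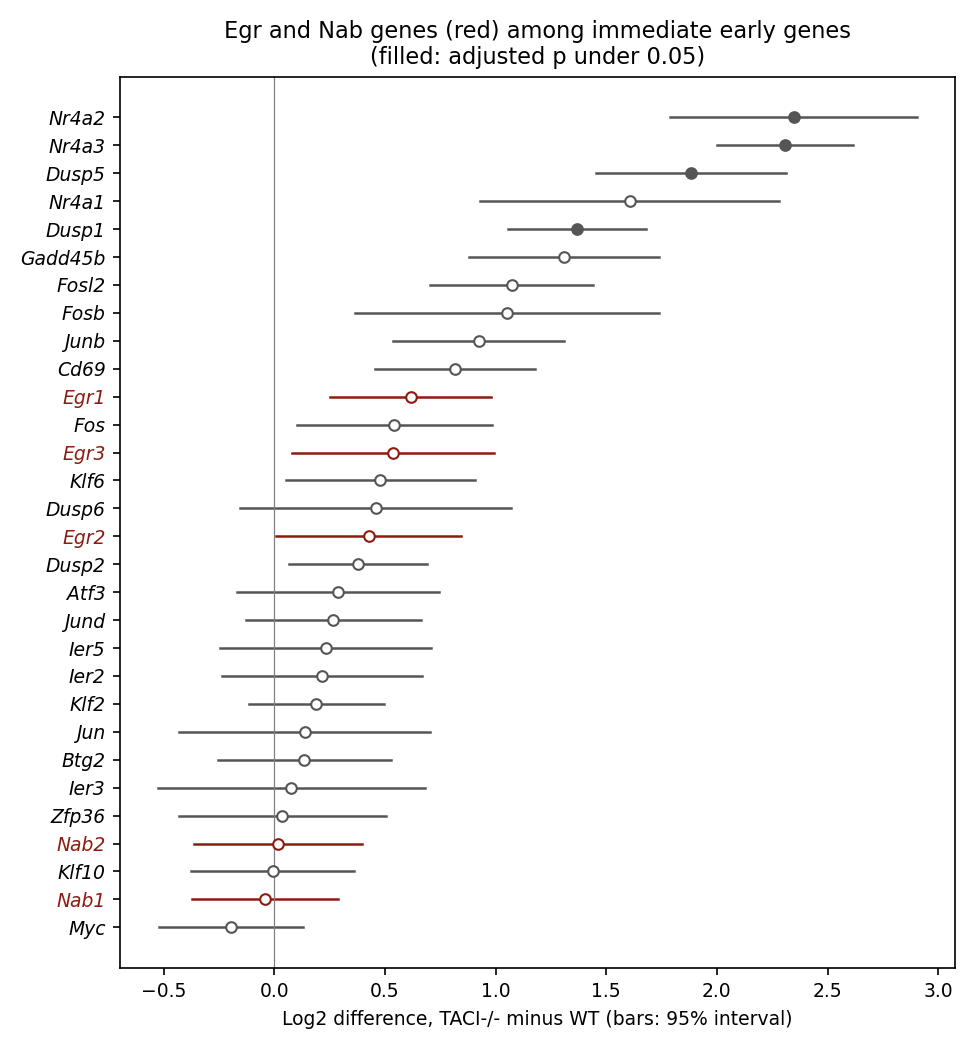
Log2 differences (TACI-/- minus WT, points) with 95% intervals (bars) for the 5 Egr and Nab genes (red) and 25 other immediate early genes (grey); filled points passed limma adjusted p under 0.05. Egr1, Egr3 and Egr2 lie between 0.43 and 0.62, below Nr4a2, Nr4a3, Dusp5 and Dusp1, the filled points, and Nab1 and Nab2 lie near 0.

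Genes reported as bound or regulated by EGR proteins in T cells made up a list of 32, of which 27 were tested. In this list 0 rose and 0 fell, beside 0.109% and 0.029% of all tested genes. Of the 27, 21 had a positive and 6 a negative log2 difference, where 51.8% of all tested genes were positive. At an unadjusted limma p under 0.05, 9 had a positive and 1 a negative difference, beside 4.94% and 3.84% of all tested genes. This list too was chosen with earlier results of these data known, so its counts are not independent evidence of a direction. The median was 0.14, against 0.0074 over all tested genes; leaving out TACI-/- replicate 1 gave 0.093, and leaving out either TACI-/- replicate 2 or WT replicate 2 gave 0.23. Lag3 and Zbtb16 did not reach the filter on all 4 arrays. Il2rb, a chain of the interleukin-2 receptor whose gene EGR2 and EGR3 are reported to bind, was at 6.42 and 6.03 on the TACI-/- arrays and at 5.12 and 5.10 on the WT arrays, a log2 difference of 1.11 ± 0.16 (SE, limma adjusted p = 0.1). Nfil3, a transcription factor gene, was at 5.04 and 4.76 on the TACI-/- arrays and 4.07 and 4.05 on the WT arrays (0.84, limma adjusted p = 0.189). At the other end stood the death receptor gene Fas (-0.23) and Zbtb16, the transcription factor gene of innate-like T cells that EGR2 induces in their precursors (-0.34), which fell short of the filter on each of the TACI-/- arrays.

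More members of this list are given as values, named after these had been seen. Cblb, which encodes a ubiquitin ligase of anergic cells, had a log2 difference of 0.07 and Itch, another such ligase gene, -0.07. Dgka and Dgkz, whose products remove diacylglycerol, had 0.03 and 0.05. The inhibitory receptor gene Lag3 had 0.68, the costimulatory receptor gene Tnfrsf9 0.77, Fasl 0.83 and Crtam 0.58, with limma adjusted p from 0.221 to 0.429. None passed.

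Of 13 genes for the NuRD chromatin complex, to which NAB proteins connect, all were tested and 0 passed in either direction, with 0 at an unadjusted limma p under 0.05. Of all tested genes 0.138% passed and 8.78% had an unadjusted limma p under 0.05, so 0 among 13 genes is near those shares. Chd4, the remodeller gene whose product NAB2 binds, was at 7.92 and 7.95 on the TACI-/- arrays and 7.94 and 7.85 on the WT arrays (log2 difference 0.04). The median was 0.03 (-0.010 without WT replicate 2), and the extremes were Gatad2a (0.15), Mta1 (0.14), Hdac1 (-0.17) and Mbd3 (-0.26).

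**Figure D4:**
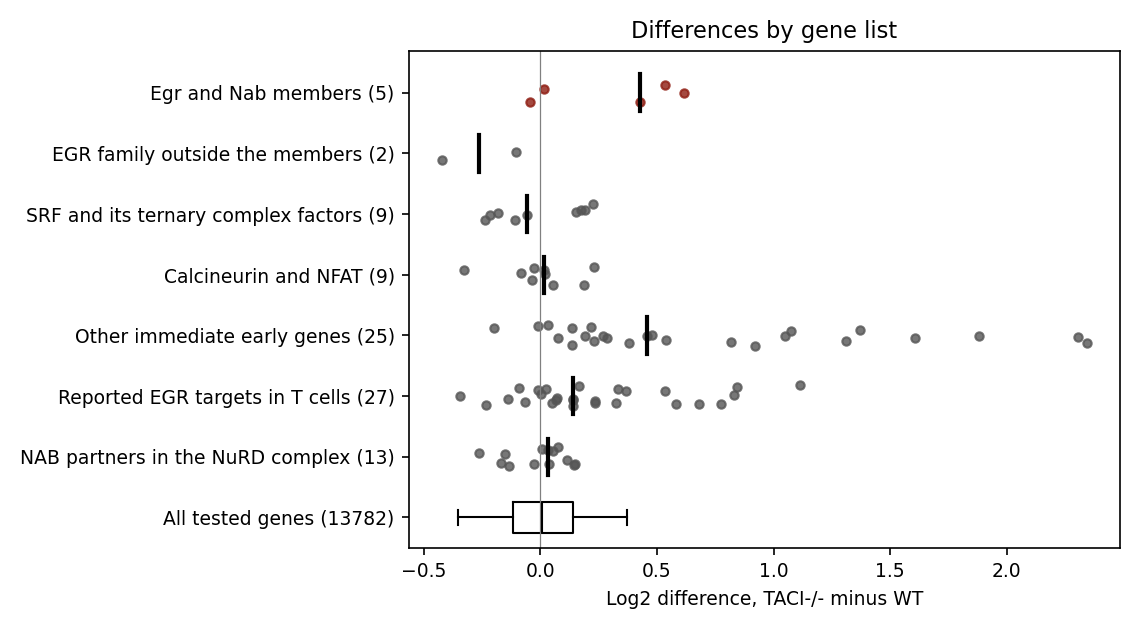
Log2 differences (TACI-/- minus WT) of the tested members of each list, 1 point per gene with a bar at the median, and a box for all 13782 tested genes (box, quartiles; whiskers, 5th to 95th percentile). The Egr genes and many of the immediate early genes lie to the right of the box's whiskers, while the upstream and NuRD genes lie within or close to them.

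Markers of other cells and states were read beside these values. Of 9 regulatory T cell markers, 1 rose, Ctla4 (1.57, limma adjusted p = 0.0246), where 0.109% of all tested genes rose. Ikzf2 and Lrrc32 reached the filter on the TACI-/- arrays only and were tested through them. The other 7 were above it on all 4 arrays, with a mean level of 6.34 and 6.27 on the TACI-/- arrays and 5.75 and 5.72 on the WT arrays, and each had a positive log2 difference. Foxp3 itself was at 6.19 and 5.98 against 5.63 and 5.38, although CD25+ cells were removed by the sort. Of 10 B cell markers with a probe set, 6 were tested, all 6 with a positive difference, where 51.8% of all tested genes were positive. Their mean level was 5.22 and 4.96 on the TACI-/- arrays and 4.61 and 4.74 on the WT arrays. Ms4a1 and Blk were below the filter on all 4 arrays. The part of these cells in the Egr values was not tested. In bulk RNA, more cells that express a gene and more RNA per cell cannot be told apart.

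Markers of the sort were measured too. Cd4 was at 10.6 and 10.4 on the TACI-/- arrays and 10.6 and 10.5 on the WT arrays, with a log2 difference of -0.04. Of 4 CD8 T cell markers, Cd8a was below the filter on all 4 arrays. Cd8b1 was at 6.11 and 5.73 on the TACI-/- arrays and 6.55 and 6.59 on the WT arrays (log2 difference -0.65, limma adjusted p = 0.327). The other markers of that list, Klrd1 and Eomes, had -0.87 and 0.79 (limma adjusted p = 0.189 and 0.256), so its members differed in sign and none passed. Cd44 had a log2 difference of 0.19 and Il2ra, which encodes CD25, 0.29, without passing (limma adjusted p = 0.766 and 0.715). Both belong to a list of memory or activated T cell markers. Of its 6 tested genes, 4 had a positive and 2 a negative difference, the highest being Il2rb (1.11). Of 5 tested naive T cell markers, 3 had a positive and 2 a negative difference, the lowest being Il7r (-0.48, limma adjusted p = 0.452). None of either list passed. Tnfrsf13b lay below the filter in both genotypes, at 2.73 and 3.09 against 2.95 and 3.02, and so does not check the genotype labels. The array medians were 4.11 to 4.13 log2 units. An array has no read depth, and with 2 per genotype the number of arrays limits the precision.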

How the data were processed

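The authors deposited 41345 probe set values per array as log2 numbers. The submitters' processing notes list robust multi-array average (RMA) and Partek, with no version and no role. Base 2 is not stated and follows from the use of RMA and from the values, which reach 13.2. RMA corrects background and quantile normalizes arrays, so a change shared by most genes would not be seen.

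Probe sets with 1 symbol (23521) were used, and those with several (1814) or none (16010) were not. Testing required that 2 or more arrays reached that array's 40th percentile (3.74 to 3.77 log2 units), which the text calls the filter. Genotypes were compared over all genes tested with limma 3.58.1 (R 4.3.3), with a linear model of genotype alone, moderated variances, two-sided tests and Benjamini-Hochberg adjusted p under 0.05 as the threshold. Errors are moderated standard errors (SE). The fit was tested on simulated data, where it recovered 36.4% of differences set at 1.5-fold and 97.1% of those set at 2-fold. In the deposited data no gene with a log2 difference under 1.17 in size passed. The simulated shares therefore do not give the power of the comparison made here. Replicate numbers were not used as pairs.

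Members and lists were chosen with earlier results of these data known. Named genes were the members, the called genes and the 2 highest and 2 lowest of each list, and the 3 nearest patterns per member; other list members and markers were named after their values were seen. The 14 alternatives were other filters, scalings, probe set summaries, variance models, a replicate block and each array left out. Promoter windows, 250 bases before to 50 after a start site, came from RefSeq. One marker of the sort is not reported here.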

Additional observations from a re-analysis of the deposited data

How the results depend on the processing

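No member passed limma adjusted p 0.05 under any of the 14 alternatives. Egr1, Egr2 and Egr3 stayed positive in all 14, but most of these could not have turned the sign. Both TACI-/- arrays lay above both WT arrays, so leaving out 1 array had to leave a positive difference. The filters, variance models, replicate block and probe set summaries left the Egr differences unchanged. Only the scalings could turn the sign. Centring arrays on the median gave 0.60, 0.41 and 0.52 for Egr1, Egr2 and Egr3. Quantile normalization again gave 0.59, 0.40 and 0.51. Leaving out 1 array at a time gave log2 differences of 0.49 to 0.74 for Egr1, 0.24 to 0.62 for Egr2, 0.32 to 0.75 for Egr3, -0.14 to 0.055 for Nab1 and -0.13 to 0.16 for Nab2, so the sign of both Nab genes turned; Nab2 had -0.0032 with arrays centred on the median. Egr2 had an unadjusted limma p of 0.0521 with no filter, and without variance moderation none of the Egr genes was under 0.05 (0.0557, 0.191 and 0.174 for Egr1, Egr2 and Egr3). The count of genes past the threshold, 19, was 3 with no filter (more tests), 45 with the filter at the 60th percentile (fewer tests), 12 after quantile normalization again, 46 with a variance trend and 0 without variance moderation (986 at unadjusted p under 0.05). Without any 1 array it was 0 to 0, with 721 to 1145 genes at unadjusted p under 0.05, against 1210. The filter changed the moderated SE as well as the number of tests. For Egr1 the SE was 0.158 with no filter, 0.152 with the filter used here and 0.143 at the 60th percentile. The cause of the changes in these counts was not tested. Without 1 array, list medians ran from -0.13 to 0.027 for the serum response factor route, from -0.020 to 0.061 for calcineurin and NFAT and from -0.010 to 0.028 for NuRD genes, which all turned sign, and from 0.093 to 0.23 for reported EGR targets. Under the 60th percentile filter Egr4 and Wt1 were not tested.

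With the replicate number as a replicate block, the log2 differences were those of the fit without it, 0.62, 0.43, 0.54, -0.04 and 0.02 for Egr1, Egr2, Egr3, Nab1 and Nab2, and no call on a member changed. The count of genes past the threshold was 13 with the block, against 19, and of the 4 early genes Dusp1 lost its call. The correlation over genes of replicate 1 minus replicate 2 between the genotypes was -0.03, so the numbers were not taken as pairs.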
